A study of Drosophila melanogaster with 8 samples.

Results

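The genes described here encode the cytoplasmic translation initiation factors (eIF) and elongation factors (eEF) of Drosophila melanogaster. Members were the genes whose single symbol in the platform annotation begins with eIF or eEF, then an optional hyphen and a digit, and each gene was represented on each array type by its brightest probe set. This gave 44 genes of the 12071 named on the arrays. The older array type read 41 of them with 47 probe sets, and the newer type read all 44 with 48. Only the newer type read eIF4B, eIF4EHP and eIF2D. In the RefSeq annotation (Release 6 plus ISO1 MT) 13 of the genes lie on chromosome arm 3R, 11 on 3L, 10 on 2R, 5 on X, 4 on 2L and 1 on chromosome 4.

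The study expressed CLKGR, a fusion of the circadian activator CLOCK with the ligand-binding part of the glucocorticoid receptor, in S2 cells, an embryonic fly line with haemocyte traits. Total RNA was read on 8 Affymetrix arrays of 2 designs, an older one (Drosophila genome 1) and a newer one (Drosophila 2.0), and 1 label states that the cells were stably transfected. The older type has 2 arrays of cells given dexamethasone and cycloheximide (DEX) and 2 of cells given ethanol and cycloheximide (EtOH). The newer type has 2 DEX arrays, with cycloheximide, and 2 arrays of a group called V, also with cycloheximide; the labels do not say what V stands for. Dexamethasone releases the fusion, and cycloheximide, which stops translation on all 8 arrays, limits the response to transcripts that need no new protein. Every group here, the control groups included, thus carries a block of the process these factors serve. The labels name no separate cultures, so the spread between arrays of a group may be technical, and they do not say whether the 2 array types read the same RNA.

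Initiation begins when eIF2, loaded with initiator tRNA, joins the small ribosomal subunit together with eIF1, eIF3 and eIF5. The cap-binding eIF4E, the scaffold eIF4G and the helicase eIF4A bring the mRNA, the start codon is selected, and eIF5B joins the subunits. eIF2B then reloads eIF2 with GTP, and the eEF1 complex, eEF2 and eIF5A carry elongation. In growing cells, cultured lines included, most of these proteins are abundant.

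All values are log2 of the deposited intensity, in arbitrary units, and each difference is DEX minus the control of the same array type with its standard error (SE) from limma. A difference was called at a Benjamini-Hochberg adjusted p under 0.05 over all features tested, which were those with a mean log2 value of at least 4. The 2 tables were normalised apart, so levels were not set against each other across them. Deposited medians over all probe sets were 4.76 to 4.85 in log2 on the older arrays and 4.44 to 4.49 on the newer arrays. The highest members passed 65535 units, the top of a 16-bit scanner, on all 4 arrays of a type for eEF5 on both types and for eIF4A and eEF1gamma on the newer type, and on 3 arrays for eIF1 on the newer type.

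No translation factor gene was called on either array type. Of the 39 members tested on the older type 0 passed, against a background of 0.263% of all probe sets (27 of 10250). Of 41 on the newer type 0 passed, with a background of 0% (0 of 12436). Before adjustment, 5 members of the older type had a limma p under 0.05, against 5.85% of all probe sets, and 0 of the newer type did, against 3.53%. The 5 were eIF4G1, eIF5, eIF4E6, eIF2Balpha and eIF3j, each higher with DEX, and eIF4E6 is named because of its value. No member differed by as much as 1 in log2 on either type. At 0.5 or more stood 4 members of the older type, eIF5, eIF4G1, eIF2Balpha and eIF2Bbeta, against 5.32% of all probe sets there, and 0 of the newer type, against 5.92%. The tests had 2 arrays a group, and a p that misses the threshold does not show that the levels were equal.

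**Figure D1:**
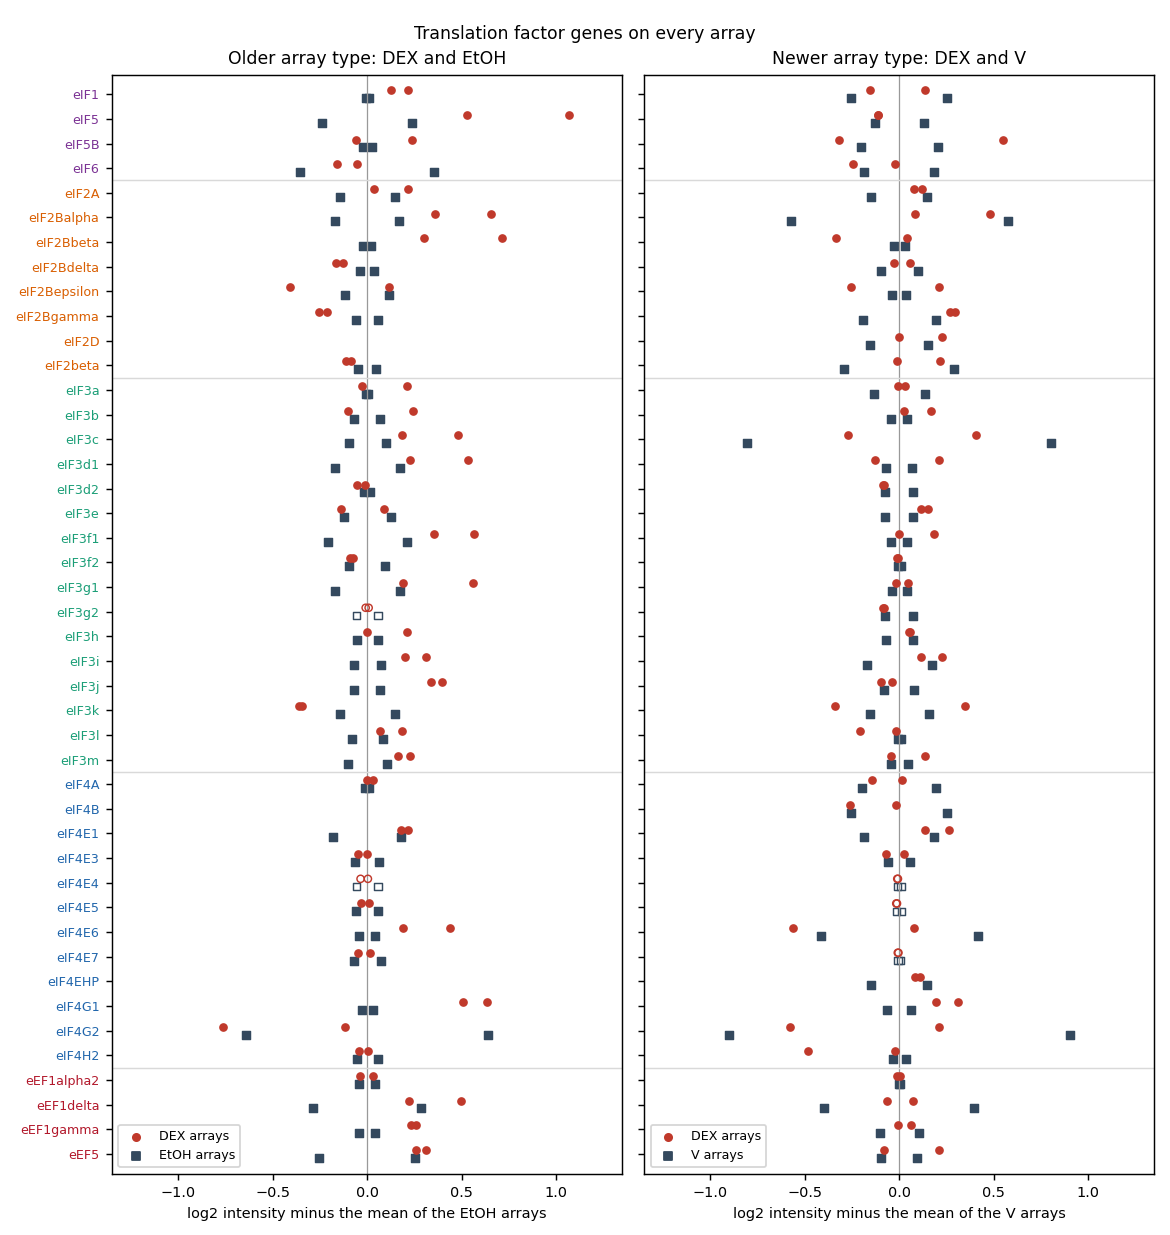
Each of the 44 genes on every array, as log2 intensity minus the mean of the EtOH arrays (left panel, older type) or of the V arrays (right panel, newer type); red circles are DEX arrays, dark squares control arrays, open symbols genes under the minimum for testing, and the label colours and grey lines mark the 5 role groups. On the older type the DEX points of 15 tested genes lie wholly right of the EtOH points and those of 4 wholly left; on the newer type the numbers against V are 3 and 3.

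The middle of the group lay slightly above 0 on the older type. The median difference over its 39 members was 0.11, against -0.01 over all probe sets, and 24 members were higher and 15 lower with DEX (61.5% higher, against 41.1% of all probe sets). The size of the median depended on the scaling. It was 0.13 with each array centred on its median, against 0.0108 over all probe sets. With quantile normalisation repeated it was 0.0139, against -0.0047 over all probe sets. The split was 30 higher to 9 lower with centring and 23 to 16 with quantiles. Among brighter features, with a mean log2 value of at least 6, the median of the 29 members was 0.17 and that of all probe sets 0.05. For the newer type the median over 41 members was 0.01, against -0.0045 over all probe sets, with 24 higher and 17 lower. At the brighter cut its 35 members had a median of 0.04 and all probe sets 0.06.

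Groups without overlap were read against the whole array. Among 39 older members, 15 had both DEX arrays above both EtOH arrays, with a background of 13.0% of all probe sets and of 24.3% among the brighter ones, where 13 of the 29 members did so. Both DEX arrays lay below both EtOH arrays in 4 members (background 13.6%), 3 of them among the brighter ones (background 14.0%). Of the 41 newer members, 3 had both DEX arrays above both V arrays (background 13.0%), 3 had them below (background 23.9%), and the other 35 overlapped. Among the 35 brighter newer members 3 lay above (background 20.4%) and 1 below (background 11.9%). The V arrays stood at opposite ends: among the 35 brighter members, V replicate 2 was the lowest array for 21 and V replicate 1 the highest for 13. The same arrays were lowest for 47.5% and highest for 31.6% of all brighter probe sets.

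The rRNA control probe sets at the 5′ end and the middle moved with the groups on the older type. The 18S rRNA probe set at the 5′ end read 11.12 and 11.47 on the older DEX arrays, against 13.69 and 11.94 on the EtOH arrays. The DEX arrays were the lower ones without overlap, and the part of this in the members' differences was not tested. The same control read 12.22 and 11.18 with DEX and 10.90 and 13.04 with V on the newer type, with overlap.

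Start-site selection and subunit joining were represented by 4 genes. With DEX 3 were higher and 1 lower on the older type, and on the newer type 1 was higher and 3 lower, with 0 called on either. eIF5, the factor that makes eIF2 hydrolyse its GTP at the start codon, had the largest difference of any member. It read 7.36 and 7.90 on the DEX arrays, against 6.60 and 7.07 on the EtOH arrays of the older type. Both DEX arrays were above both EtOH arrays, by 0.80 ± 0.25 (SE, adjusted p = 0.669). The spread within each group was wide, with means of 7.63 ± 0.38 with DEX and 6.83 ± 0.34 with EtOH (SD, n = 2 each). Replicate 2 was the higher array in both groups, and the labels do not say whether same-numbered replicates belong together. Without DEX replicate 1 the difference was 1.07 and passed the threshold (adjusted p = 9.6e-04), in a fit where 2.56% of all probe sets passed. It was 0.53 without DEX replicate 2 (adjusted p = 0.283) and 0.56 without EtOH replicate 1 (adjusted p = 0.72).

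eIF5 read 11.55 and 11.55 with DEX and 11.80 and 11.54 with V on the newer type. The DEX arrays were equal to the second decimal and lay between the V arrays, and the difference was -0.11 ± 0.13 (adjusted p = 0.869). The 2 differences, newer minus older, were set apart by -0.91 ± 0.34 (95% interval -1.73 to -0.09). Its limma p was 0.0338 before adjustment and 0.981 after, and eIF5 was the only one of 39 members under 0.05 before adjustment in that fit (background 4.77%). The newer probe set carries the suffix _s_at, which marks sets that can read more than 1 transcript, and the older one does not, so the values of the 2 types may not stand for the same transcripts.

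eIF6 binds the large ribosomal subunit and keeps it from joining too early. It read 6.91 and 7.02 with DEX and 7.42 and 6.71 with EtOH on the older type. It read 10.81 and 11.03 with DEX and 10.87 and 11.24 with V on the newer type. In both cases the groups overlapped, with differences of -0.11 ± 0.25 (older) and -0.14 ± 0.19 (newer). eIF1, which guards the choice of start codon, differed by 0.17 on the older type without overlap and by -0.01 on the newer type with overlap. eIF5B, the GTPase of subunit joining, differed by 0.09 and 0.11. Its 3 older probe sets gave differences between 0.00 and 0.09.

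The eIF2 and eIF2B genes did not share a direction between the types. Of 7 genes on the older type 3 were higher and 4 lower with DEX, and on the newer type 6 of 8 were higher and 2 lower, with 0 called on either. eIF2beta, a subunit of the tRNA carrier eIF2, read 12.18 and 12.16 on the older DEX arrays, against 12.23 and 12.32 on the EtOH arrays. It read 14.07 and 14.30 on the newer DEX arrays, against 14.38 and 13.80 on the V arrays. The older DEX arrays were just below both EtOH arrays, whereas the newer DEX arrays lay between the V arrays. Its differences were -0.10 ± 0.16 on the older type and 0.10 ± 0.26 on the newer. The other subunits of eIF2, alpha and gamma, were not analysed here.

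eIF2Balpha is one of the regulatory subunits of eIF2B, through which phosphorylated eIF2 inhibits the exchange of GDP for GTP. It read 5.80 and 6.10 with DEX and 5.61 and 5.27 with EtOH on the older type. Both DEX arrays were above both EtOH arrays, by 0.51 ± 0.17 (adjusted p = 0.711). Without DEX replicate 1 the difference was 0.66, and with any 1 older array left out it ran from 0.34 to 0.68. eIF2Balpha read 9.43 and 9.03 with DEX and 9.52 and 8.37 with V on the newer type. The V arrays were the highest and the lowest of the 4, so the groups overlapped, and the difference was 0.28 ± 0.49 (adjusted p = 0.906).

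eIF2Bgamma, another subunit of eIF2B, separated its groups on both types, in opposite directions. It read 5.24 and 5.29 with DEX, against 5.56 and 5.44 with EtOH on the older type. It read 8.81 and 8.84 with DEX, against 8.73 and 8.35 with V on the newer type. The older DEX arrays were below both EtOH arrays, by -0.23 ± 0.11 (adjusted p = 0.922), and the newer DEX arrays above both V arrays, by 0.28 ± 0.18 (adjusted p = 0.865). The difference of the 2 effects was 0.51 ± 0.24 (adjusted p = 1).

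The other eIF2B subunits are given for their values, which were seen first. eIF2Bbeta read 9.29 and 8.88 on the older DEX arrays, against 8.60 and 8.56 on the EtOH arrays. It lay above EtOH by 0.51 ± 0.21 without overlap, but differed from V by -0.15 ± 0.18 on the newer type, where the groups overlapped. eIF2Bdelta had 2 older probe sets that disagreed. The brighter one differed by -0.15 ± 0.13 and the other by 0.58 ± 0.14 (adjusted p = 0.372), so the gene's direction depends on the probe set. That other set read 6.54 and 6.46 with DEX, against 6.02 and 5.82 with EtOH, without overlap. eIF2Bepsilon, the subunit that carries the exchange activity, differed by -0.15 on the older type and -0.02 on the newer. eIF2A and eIF2D, which can bring initiator tRNA without eIF2, differed by 0.10 and 0.11 on the newer type, and eIF2A by 0.13 on the older.

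The eIF3 complex, the scaffold that binds the small subunit and holds the other factors in place, was read through 16 genes. Of 15 tested on the older type 11 were higher and 4 lower with DEX, and 7 had their DEX arrays above both EtOH arrays (background 13.0% of all probe sets, 24.3% of the brighter ones). Of 16 on the newer type 11 were higher and 5 lower. Only eIF3e had its DEX arrays above both V arrays (background 13.0% of all probe sets, 20.4% of the brighter ones). By contrast, eIF3d2, eIF3g2 and eIF3l had theirs below (background 23.9% of all probe sets, 11.9% of the brighter ones). Of these, eIF3d2 and eIF3g2 lay near the lower end of the arrays. None of the eIF3 genes was called on either type, and the medians of their differences were 0.13 on the older type and 0.03 on the newer.

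eIF3j, a subunit that binds loosely and sits near the decoding site, had the smallest p of the eIF3 genes on the older type. It read 6.78 and 6.84 there with DEX, against 6.52 and 6.38 with EtOH. The arrays of each group lay close together and did not overlap, and the difference was 0.37 ± 0.14 (adjusted p = 0.804). It read 11.38 and 11.32 with DEX and 11.50 and 11.34 with V on the newer type. Here DEX replicate 2 was the lowest of the 4 arrays and the groups overlapped, with a difference of -0.07 ± 0.11.

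eIF3f1, which belongs to the core octamer of the complex in mammals, had the largest difference of the eIF3 genes on the older type. It read 11.71 and 11.50 with DEX, against 11.35 and 10.94 with EtOH, a difference of 0.46 ± 0.22 (adjusted p = 0.947). All DEX values were above all EtOH values, and the difference was 0.25 without EtOH replicate 2. Its newer values were 12.56 and 12.74 with DEX and 12.60 and 12.52 with V, with overlap and a difference of 0.09 ± 0.11.

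eIF3i, a WD-repeat subunit of the complex, read 13.21 and 13.10 on the older DEX arrays, against 12.97 and 12.83 on the EtOH arrays. It read 14.45 and 14.56 on the newer DEX arrays, against 14.51 and 14.17 on the V arrays. DEX was above EtOH without overlap by 0.26 ± 0.16, while V replicate 1 lay between the newer DEX arrays and the difference was 0.17 ± 0.16. eIF3e, which contacts the ribosome next to the mRNA exit, read 12.67 and 12.90 with DEX and 12.93 and 12.68 with EtOH on the older type. Its newer values were 13.74 and 13.78 with DEX, against 13.71 and 13.56 with V. The older groups overlapped (-0.02 ± 0.18), and the newer DEX arrays were just above both V arrays (0.13 ± 0.09, adjusted p = 0.865).

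Other eIF3 genes are named because their values stood out. eIF3k was the 1 member of the complex with its DEX arrays below both EtOH arrays, at 10.67 and 10.65 with DEX against 11.16 and 10.87 with EtOH. Its difference was -0.35 ± 0.19 on the older type and 0.01 ± 0.31 on the newer type. eIF3c, a core subunit that binds eIF1 and eIF5, varied widely within groups on the newer type. It read 11.09 and 10.42 with DEX and 9.88 and 11.49 with V there, and 10.52 and 10.22 with DEX, against 9.94 and 10.14 with EtOH, on the older type. The V arrays were the lowest and the highest, and the newer difference was 0.07 ± 0.69. The remaining older subunits that lay above EtOH without overlap, eIF3d1, eIF3g1 and eIF3m, differed by 0.20 to 0.38.

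**Figure D2:**
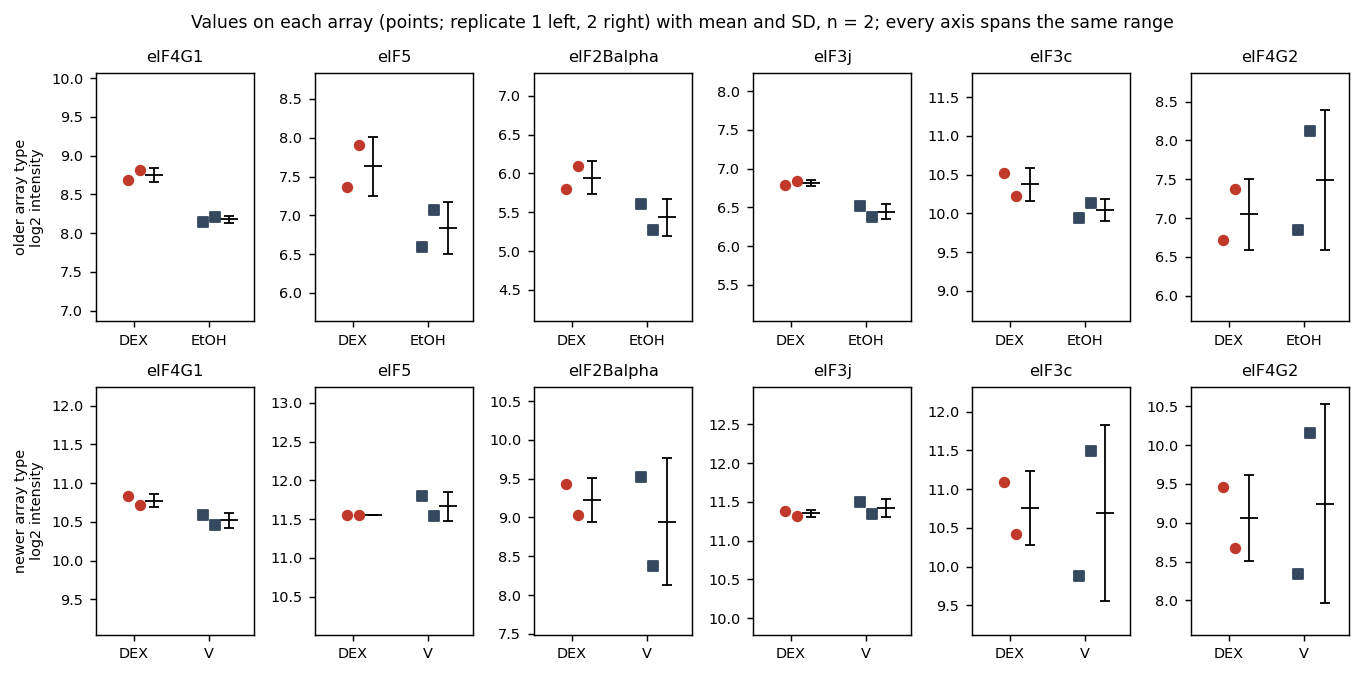
Log2 intensity of 6 member genes on each array of the older type (top row, DEX and EtOH) and newer type (bottom row, DEX and V), with points for replicates 1 (left) and 2 (right) and bars for the mean and SD of 2 arrays. All axes span the same range; eIF4G1 is separated on both types, eIF5 on the older type only, and eIF3c and eIF4G2 spread most between the V arrays.

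eIF4G1, the scaffold that ties the cap-binding factor to the helicase and to eIF3, was the only member with its DEX arrays above the control arrays on both types. It read 8.68 and 8.81 with DEX, against 8.15 and 8.21 with EtOH on the older type. It read 10.83 and 10.71 with DEX, against 10.58 and 10.45 with V on the newer type. All DEX values were above the control values of their type. The difference was 0.57 ± 0.17 on the older type (adjusted p = 0.594) and 0.25 ± 0.11 on the newer type (adjusted p = 0.865). On the deposited scale these are ratios of 1.49 and 1.19, and ratios of 1.32 and 1.13 if the authors left the log scale of the normalisation with base e, which the sources do not settle.

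In the joint fit of both array types eIF4G1 differed by 0.41 ± 0.11 (95% interval 0.16 to 0.66). Its limma p of 0.00573 before adjustment was the 27th smallest of 8404 genes, and the adjusted p was 0.901. It was the only one of 39 members under 0.05 before adjustment there, with a background of 3.66%. Separation upward on both types was seen in 1 of 39 members, against 2.52% of all genes, and separation downward in 0 of 39, against 2.64%. The test of the older against the newer difference did not pass (newer minus older -0.32 ± 0.20, adjusted p = 1).

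The eIF4 genes gave no common direction. With eIF4G1 counted, of 9 tested on the older type 4 were higher and 5 lower with DEX. On the newer type 3 of 9 were higher and 6 lower. The older lower genes include the dim eIF4E3, eIF4E5, eIF4E7 and eIF4H2, with differences of only -0.02 to -0.01. Among older eIF4 genes with a mean log2 of at least 6, eIF4A, eIF4E1 and eIF4G1 were higher and eIF4G2 lower. eIF4E1, the main cap-binding protein, read 10.32 and 10.35 on the older DEX arrays, against 9.96 and 10.32 on the EtOH arrays. It read 12.87 and 12.75 on the newer DEX arrays, against 12.80 and 12.43 on the V arrays. The groups overlapped by a narrow margin on both types, and the difference was 0.20 on each, with SEs of 0.21 and 0.17. With 1 array left out it ran from 0.0164 to 0.38 on the older type and from 0.0149 to 0.39 on the newer. Its adjusted p was 1 on the older type and 0.865 on the newer.

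eIF4A, the helicase that unwinds mRNA leaders, had nearly equal values on the 4 older arrays. It read 15.73 and 15.76 with DEX and 15.72 and 15.74 with EtOH, a difference of 0.02 ± 0.10. Its newer values were 16.23 and 16.07 with DEX and 16.02 and 16.41 with V, a difference of -0.07 ± 0.18. The groups overlapped on both types. The manufacturer also placed 3 eIF4A control probe sets, for the 5′ end, the middle and the 3′ end of the transcript, on both designs. On the older type these differed by 0.31, 0.15 and 0.15, and on the newer type by -0.09, -0.12 and -0.15. The older control at the middle read 15.68 and 15.62 with DEX, against 15.55 and 15.46 with EtOH, without overlap. The newer control at the middle was separated the other way, at 16.77 and 16.83 with DEX against 16.97 and 16.88 with V. The annotated set overlapped on both types.

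The same controls compare the ends of the transcript. The 3′ set minus the 5′ set gave 2.18 and 2.81 on the older DEX arrays and 2.29 and 3.01 on the EtOH arrays. It gave 3.26 and 3.24 on the newer DEX arrays, against 3.31 and 3.32 on the V arrays. The older arrays differed more by replicate number than by group, and the newer DEX arrays were below both V arrays by a small margin.

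**Figure D3:**
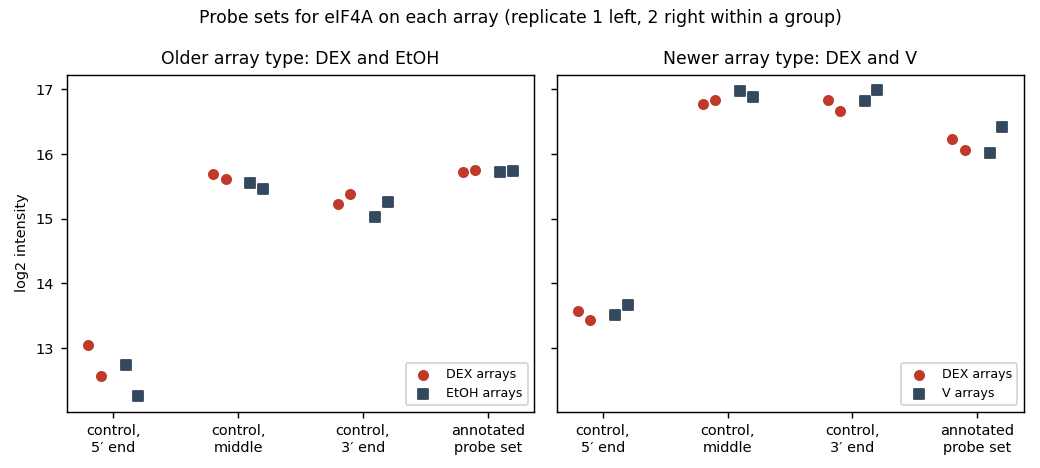
Log2 intensity of the 3 manufacturer's control probe sets for eIF4A and of its annotated probe set on each array of the older type (left, DEX and EtOH) and newer type (right, DEX and V); within a group replicate 1 is on the left. The 5′ controls are drawn on the same axis only to show their array order, since probe sets differ in brightness; DEX lies above EtOH in the older middle control and below V in the newer one, and the groups overlap in both annotated sets.

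eIF4G2, a second eIF4G gene needed in the male germ line, had the widest spread of the members on both types and is named for it. It read 6.72 and 7.37 with DEX and 6.85 and 8.13 with EtOH on the older type. It read 9.46 and 8.67 with DEX and 8.35 and 10.15 with V on the newer type. Control replicate 2 was the highest array on both types, and the groups overlapped, with differences of -0.44 ± 0.44 and -0.18 ± 0.78. Without older DEX replicate 2 the difference was -0.765 and passed the threshold, in a fit where 4.44% of all probe sets did. On the newer arrays eIF4G2 and eIF3c had the same order of arrays as the 18S rRNA control at the 5′ end, with V replicate 2 first and V replicate 1 last, and the part of that control in their spread was not tested.

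Several paralogs of the eIF4E and eIF3 genes were read near the lower end of the arrays. eIF4E3, eIF4E4, eIF4E7, eIF3d2, eIF3f2 and eIF3g2 lay between 3.38 and 5.04 on every array of both types. eIF4E4 was under the minimum for testing on both types, eIF3g2 on the older type, and eIF4E5 and eIF4E7 on the newer type. Their differences from the control arrays lay between -0.09 and 0.00. eIF4E6 read 4.56 and 4.81 on the older DEX arrays, against 4.33 and 4.41 on the EtOH arrays, without overlap (0.31 ± 0.10, adjusted p = 0.669). Its newer values were 7.82 and 8.46 with DEX and 8.80 and 7.97 with V, with overlap (-0.24 ± 0.43). eIF4H2, from the family of helicase partners, differed by -0.02 on the older type and -0.25 on the newer, with overlap on both.

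By their brightest probe sets, the 3 members read by the newer type alone overlapped between groups. eIF4B, a partner of the helicase, had 4 probe sets whose differences ran from -0.14 to 0.45, and the brightest gave -0.14 ± 0.24. Its sets with differences of 0.25 and 0.45 had both DEX arrays above both V arrays, and the set at -0.12 overlapped. eIF4EHP, a cap-binding protein that represses particular mRNAs, differed by 0.10 ± 0.15, and its dimmer set lay below V without overlap, by -0.22. eIF2D is given with eIF2A above.

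The elongation genes were 4, of which 3 were higher and 1 lower with DEX on each type, and 0 were called. eEF1gamma, a structural subunit of the eEF1 complex, read 14.29 and 14.27 on the older DEX arrays, against 13.99 and 14.08 on the EtOH arrays. The groups did not overlap, and the difference was 0.24 ± 0.13 (adjusted p = 1). Its newer values were 17.49 and 17.42 with DEX and 17.53 and 17.32 with V, with overlap and a difference of 0.03 ± 0.10. eEF1delta, a subunit that exchanges the nucleotide on eEF1alpha, read 11.52 and 11.79 with DEX and 11.01 and 11.58 with EtOH on the older type. It read 13.38 and 13.24 with DEX and 13.70 and 12.91 with V on the newer type. Its groups overlapped on both types, with differences of 0.36 ± 0.25 and 0.01 ± 0.33.

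eEF5, the fly eIF5A, which carries hypusine and helps ribosomes past difficult peptide bonds, passed 65535 units on every array. It read 17.11 and 17.16 on the older DEX arrays, against 16.60 and 17.10 on the EtOH arrays. It read 19.87 and 19.58 on the newer DEX arrays, against 19.76 and 19.57 on the V arrays. The older DEX arrays were above both EtOH arrays, of which replicate 2 lay just under them (0.29 ± 0.17, adjusted p = 1), and the newer groups overlapped (0.06 ± 0.14). eEF1alpha2, the tissue-restricted form of the tRNA-delivering factor, stayed near the array median at 4.60 and 4.67 with DEX and 4.60 and 4.68 with EtOH on the older type. It read 4.18 and 4.16 with DEX and 4.18 and 4.17 with V on the newer type. Its differences were 0.00 ± 0.08 and 0.00 ± 0.02, and their sign turned under both other scalings on each type. The more widely expressed eEF1alpha1, eEF2, and eIF1A were not analysed here.

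The 2 array types were then set side by side for the 39 members that entered the joint fit. No member passed the threshold in the joint fit (background 0%) or in the test of the difference between types (background 0.297%, 25 of 8404 genes). The smallest adjusted p values were 0.901 and 0.981. The median difference in the joint fit was 0.08 over the members and 0.00 over all genes, and 25 of 39 members were positive (64.1%, against 51.3% of all genes). The sign was the same on both types for 27 of 39 members (69.2%, against 56.2% of all genes). Across the 39 members the 2 sets of differences correlated at Pearson's r = 0.14 and Spearman's rho = 0.19, as a description of genes read on the same arrays. Over all 8404 genes r was -0.18 and rho 0.05.

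**Figure D4:**
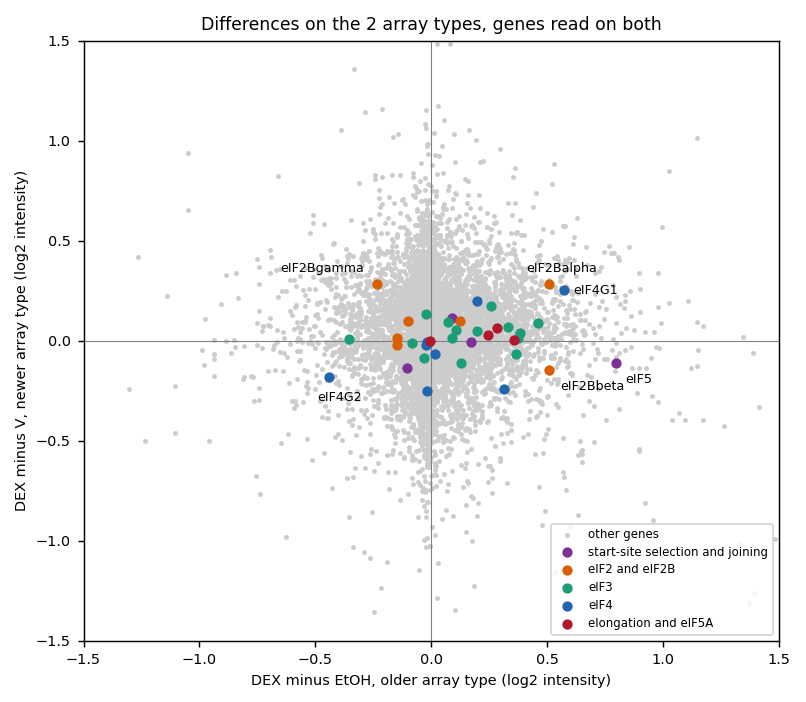
DEX minus EtOH on the older type (horizontal) against DEX minus V on the newer type (vertical), both in log2 intensity, for genes read on both types; grey points are other genes and coloured points the members by role, and 33 genes lie outside the plotted range. Members lie between -0.44 and 0.80 on the horizontal axis and between -0.25 and 0.28 on the vertical, with eIF4G1 and eIF2Balpha positive on both and eIF5 positive on the older type only.

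The spread between arrays of a group sets what these arrays could show. Among brighter features the median within-group SD was 0.17 for members and 0.18 for all probe sets on the older type, and 0.18 and 0.20 on the newer type. The SE of a member's difference had a median of 0.18 on the older type, with a range of 0.06 to 0.44, and a median of 0.15 on the newer type, with a range of 0.02 to 0.78. The smallest SEs belonged to genes near the lower end, such as eEF1alpha2 on the newer type, and the largest to eIF4G2 on both types. All but 1 of the newer probe sets of the eEF genes carry _s_at, eEF1delta's being _a_at; in all 8 newer member sets are _s_at and 3 _a_at, and their values may join several transcripts.

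**Figure D5:**
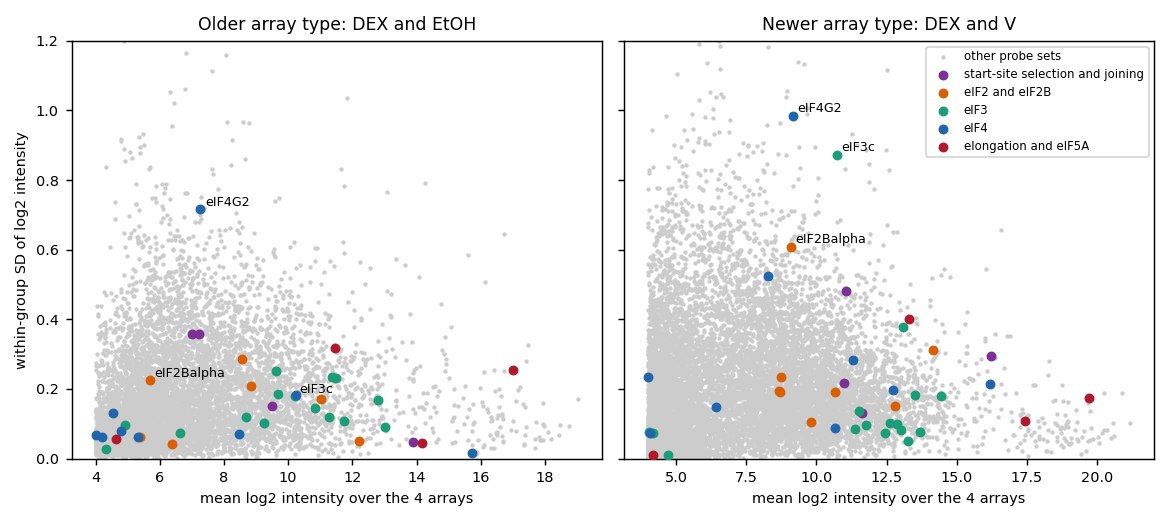
Within-group SD of log2 intensity (vertical) against mean log2 intensity over the 4 arrays (horizontal) for probe sets tested on the older type (left, DEX and EtOH) and newer type (right, DEX and V); grey points are other probe sets, coloured points the members by role, and a few points above 1.2 are not shown. Members follow the cloud of other probe sets, and eIF4G2 has the highest SD of the members on both types.

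Genes around the initiation and elongation machinery were counted in 6 lists, and 0 of their genes were called on either type. Of the termination factors eRF1 and eRF3, both were higher with DEX on both types, by at most 0.08. Of the 6 genes for control of cap binding and TOR signalling, 2 were higher and 4 lower on the older type, and 1 was higher and 5 lower on the newer type. bin3, whose product binds Bicoid and represses translation of caudal, had the smallest p of them on the older type, at 7.58 and 8.34 with DEX against 8.86 and 9.27 with EtOH (-1.11 ± 0.30, adjusted p = 0.479). Paip2, which inhibits the poly(A)-binding protein, had it on the newer type, at 12.28 and 11.89 with DEX against 12.72 and 13.75 with V (-1.14 ± 0.44, adjusted p = 0.865). Both were separated on 1 type and overlapped on the other.

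The 4 genes of the eIF2 kinase response were split evenly, with 2 higher and 2 lower on each type. crc, the fly ATF4, which is translated when eIF2 is phosphorylated, differed by 0.49 ± 0.21 on the older type without overlap and by -0.06 ± 0.10 on the newer type. The kinase Gcn2 differed by -0.01 on the older type and by -0.19 on the newer type. Of the 18 aminoacyl-tRNA synthetases, which charge tRNAs for elongation, 14 were higher and 4 lower on the older type, and 11 were higher and 7 lower on the newer type. ValRS had the smallest p on the older type (0.32 ± 0.14) and LeuRS on the newer type (0.56 ± 0.26), both without overlap there. AsnRS and TrpRS, named for their values, lay above the control arrays on both types (background 2.52% of all genes). They differed by 0.20 ± 0.09 and 0.25 ± 0.13 in the joint fit (adjusted p = 0.901 each).

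Of the mitochondrial factors 5 of 8 were higher and 3 lower on the older type, and 5 of 9 were higher and 4 lower on the newer type. mIF2, which brings initiator tRNA to the mitochondrial ribosome, read 6.84 and 5.89 with DEX, against 5.79 and 5.88 with EtOH, on the older type. It read 7.47 and 7.40 with DEX, against 6.80 and 6.31 with V on the newer type. It was above the control arrays on both types (background 2.52% of all genes), on the older by a narrow margin between the replicate 2 arrays. The difference was 0.53 ± 0.30 on the older type, 0.88 ± 0.22 on the newer and 0.71 ± 0.22 in the joint fit (adjusted p = 0.901).

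NAT1, an eIF4G-related factor without the cap-binding part, came from the list of factors whose symbols lack the eIF prefix. It read 11.19 and 11.12 on the older DEX arrays, against 11.51 and 11.47 on the EtOH arrays. It read 12.71 and 12.34 on the newer DEX arrays, against 13.61 and 13.51 on the V arrays. Both DEX arrays were below both control arrays on each type (background 2.64% of all genes), whereas eIF4G1 lay above on each (background 2.52%). The differences were -0.34 ± 0.17 on the older type and -1.03 ± 0.17 on the newer, and -0.69 ± 0.16 in the joint fit, with a limma p of 0.00321 before adjustment and 0.901 after. That list had 3 genes tested on the older type, 2 higher and 1 lower, and 4 on the newer type, 2 higher and 2 lower, of which eIF2D is a member counted above.

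Among the marker lists, all 10 haemocyte genes read on the older type and all 11 on the newer type were above the minimum, and 0 were called. The minimum does not set this list apart, since all 4 neuronal genes read passed it on each type. Haemocyte levels varied, and NimC1 lay under the array median on the older type, at 4.48 and 4.53 with DEX and 4.45 and 4.60 with EtOH. The peroxidasin gene Pxn read 13.62 and 14.24 on the older DEX arrays, against 13.64 and 13.91 on the EtOH arrays, with overlap. Other haemocyte genes separated the groups on 1 type, in both directions, and Fer1HCH did so on both types, all without passing the threshold. Fer1HCH lay above the control arrays on each type (background 2.52% of all genes), by 0.16 ± 0.07 in the joint fit. Its limma p there was 0.0448 before adjustment and 0.901 after. On the older type the collagen gene Col4a1 was lower with DEX than with EtOH, a difference of -0.66 ± 0.21 (adjusted p = 0.669), and the GATA factor gene srp was higher, a difference of 0.53 ± 0.19 (adjusted p = 0.738), and both overlapped on the newer type. The haemocyte gene He, read on the newer type, lay above V by 1.09 ± 0.33 (adjusted p = 0.865). Summed deposited intensities of the haemocyte list were 46407 to 57622 with DEX and 52729 to 53452 with EtOH on the older type, and 193901 to 198332 with DEX and 167700 to 188766 with V on the newer type. The newer DEX arrays were above both V arrays in this sum, and its part in the members' differences was not tested. The brightest genes weigh most in such a sum. On the newer type these were Fer1HCH and Pxn, each at 15.44 or more on every array. The 4 neuronal genes read summed to 141 to 146 with DEX and 141 to 148 with EtOH on the older type, and to 94.2 to 95.01 with DEX and 99.7 to 133 with V on the newer type. The 3 muscle genes summed to 51.4 to 52.0 with DEX and 50.6 to 52.1 with EtOH on the older type, and to 49.42 to 49.59 with DEX and 49.64 to 50.09 with V on the newer type. The 4 fat body and gut genes summed to 70.03 to 71.3 with DEX and 76.9 to 78.2 with EtOH on the older type, and to 84.7 to 91.9 with DEX and 86.4 to 95.6 with V on the newer type. The 4 germline genes summed to 125.2 to 126.595 with DEX and 126.56 to 129.0 with EtOH on the older type, and to 125.7 to 127.95 with DEX and 128.4 to 135.7 with V on the newer type. The fat body sum of the older type and the neuronal, muscle and germline sums of the newer type thus lay lower with DEX without overlap. The muscle sums did so by a small margin, and the part of these sums in the members' differences was not tested. Most genes of these lists read near the lower end of the arrays, so the sums do not show that such cells were present. On the older type 2 of the fat body and gut genes were under the minimum, among them Try29F (3.17 and 3.28 with DEX, 3.80 and 3.47 with EtOH). On the newer type elav read 6.44 on V replicate 1, against 5.51 on V replicate 2 and 5.50 and 5.49 with DEX. Fewer cells of a type and less RNA per cell cannot be told apart in such bulk RNA.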

How the data were processed

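For every probe set the authors deposited an intensity on each array, made with GCRMA per the submitters' processing notes. GCRMA corrects background, normalises by quantiles and summarises probes; the sources used here give no version of it. It works in log2, and with which base the authors left that scale is unknown here; with base e every log2 difference would be 0.693 times the one printed.

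The log2 was taken with no pseudocount, and features with a mean of at least 4 (16 on the deposited scale) were tested, two-sided, in a separate fit per type (R 4.3.3, limma 3.58.1: lmFit, eBayes with an intensity trend, Benjamini-Hochberg), leaving 2 residual degrees of freedom. A joint fit had array type as a block, and an interaction fit tested newer minus older. Genes were named through the platform annotation and RefSeq (Release 6 plus ISO1 MT); all 47 older and 48 newer member probe sets matched. No column lacked a sample, and none were identical. Precision is limited by the number of arrays. Simulated data were used to check the fits.

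The members and lists were chosen with earlier results of these data known. Named were, by role and type, the member with the smallest p and that with the largest difference, members separated the same way on both types, core factors, and the smallest p of each pathway list; others were named after their values were seen. Alternatives were the scaling, the filter, the variance model, plain _at sets, the replicate block and each array left out.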

Additional observations from a re-analysis of the deposited data

How the results depend on the processing

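Counts of called members stayed at 0 in all 4 fits under both other scalings, without the filter, at a mean log2 of at least 6, without the intensity trend and with plain _at sets. They were also 0 on each type alone with variance shared by all 8 arrays, which was added after seeing the data. With 1 array left out the joint fit called 0 members. Each such fit of a single type holds 1 array in a group. Without older DEX replicate 1, eIF5 differed by 1.07 and eIF2Balpha by 0.66, and without DEX replicate 2 eIF4G2 differed by -0.765. Whether these genes passed the threshold depended on the array left out. In these fits the lone array of a group is assumed to vary like the others. The replicate block left 0 members called in every fit. The labels do not say whether same-numbered replicates belong together (correlation of same-numbered deviations 0.26 for the older, -0.02 for the newer type). On the older type the 3′ minus 5′ values of the eIF4A, actin, GAPDH and 18S rRNA controls were higher on replicate 2 than on replicate 1 in both groups. With the replicate block the older eIF5 difference had an adjusted limma p of 0.182.

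The older median difference of members, 0.11, was 0.13 with median centring, 0.0139 with repeated quantile normalisation, 0.17 at the stricter filter, and 0.0912 to 0.181 with 1 array left out; the newer, 0.01, ran from -0.0300 to 0.120 with 1 array left out. The cause was not tested. Of 374 values of single genes under the alternatives 344 kept direction and side of the threshold and 28 reversed. The other 2 were eIF5 and eIF2Balpha without older DEX replicate 1, at 1.07 and 0.66. eIF4G1 in the joint fit ran from 0.35 to 0.47 (adjusted p 0.68 to 0.983).

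The following signs turned. On the older type eEF1alpha2 was 0.0196 with centring and 0.0124 with quantiles, eIF3e 0.00195 with centring, and eIF4A -0.0572 with quantiles. On the newer type eEF1alpha2 was 0.0158 with centring and 0.0175 with quantiles. With 1 array left out, the older values ran from -0.0482 to 0.0387 for eEF1alpha2, from -0.15 to 0.10 for eIF3e and from -0.46 to 0.25 for eIF6. The newer values ran from -0.0130 to 0.0054 for eEF1alpha2, -0.39 to 0.40 for eEF1delta, -0.0760 to 0.13 for eEF1gamma, -0.0825 to 0.21 for eEF5, -0.29 to 0.86 for eIF2Balpha, -0.19 to 0.39 for eIF2beta, -0.0034 to 0.18 for eIF3f1, -0.0011 to 0.34 for eIF3i, -0.15 to 0.0128 for eIF3j, -0.26 to 0.13 for eIF4A, -0.24 to 0.0170 for eIF5 and -0.32 to 0.0492 for eIF6. Without a turn of sign, the range was 0.0717 to 0.65 for eEF1delta and 0.0321 to 0.54 for eEF5 on the older type, and 0.0890 to 0.47 for eIF2Bgamma and 0.0568 to 0.21 for eIF3e on the newer. With 2 arrays a group, spread between arrays limits what could be seen, and for the dimmer members so does signal near the array median. Most members were brighter, 29 of 39 on the older type and 35 of 41 on the newer having a mean log2 of at least 6.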
